A study of Mus musculus with 20 samples.

Results

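The genes described here are the liver's main metallothioneins and a small set of zinc handling genes: Mt1, Mt2, the zinc sensor Mtf1, the importers Slc39a14 and Slc39a4 and the exporters Slc30a1 and Slc30a10. They are 7 of the 18193 genes with a probe set of their own on the array, 17 of 34945 such probe sets, and all 7 passed the filter on low values (mean of at least 6.505), which left 11728 genes. Each gene was read from its brightest probe set on average over the 20 arrays, and its other probe sets served as a check. The genes were chosen by earlier results of these same data, in which Mt1 and Mt2 had a wide spread between mice, so the spread of the members and the correlation of Mt1 with Mt2 are given as descriptions with no test.

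Livers came from 20 male mice of the inbred strain C57BL/6J at 8 weeks of age, and the RNA of each was hybridised to 1 array. In the HFD group, 10 mice ate a high-fat diet with 45 kcal% fat for 4 weeks. In the 005MSXH group, 10 mice ate the same high-fat diet with 0.05% of a maple syrup extract, MSXH, and both groups were sampled on day 30 after a 16 h fast. The comparison addresses the effect of the extract under high-fat feeding, since both groups carried the high-fat diet. A low-fat group and a group given less extract were not analysed here.

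Metallothioneins are small, cysteine-rich proteins that bind zinc and copper, and the liver makes them in large amounts. Free zinc activates the transcription factor MTF1, encoded by Mtf1, which binds metal response elements near the metallothionein genes and the exporter gene Slc30a1. Glucocorticoids and acute phase cytokines also induce metallothioneins, and Slc39 (ZIP) proteins bring zinc into the cytosol while Slc30 (ZnT) proteins remove it.

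The promoters are shown first because the metal response element is the sequence that MTF1 binds. In RefSeq (GRCm38.p6), Mt2 (chr8:94172618-94173567) and Mt1 (chr8:94178883-94180327) lie 5315 bases apart. Mtf1 lies at chr4:124802549-124849800, Slc30a10 at chr1:185454848-185468762, Slc30a1 at chr1:191906697-191913248, Slc39a14 at chr14:70303467-70351452 and Slc39a4 at chr15:76612383-76618506. RefSeq promoter windows of 250 bases before a start and 50 from it on were used for Mt1, Mt2, Mtf1, Slc30a1 and Slc30a10. The starts used for Mt1 and Slc30a1 lie inside the RefSeq gene spans, and which transcript start they stand for was not checked. Counts and positions therefore hold for these windows only. The 250 bases before the start are chr8:94178839-94179088 for Mt1 and chr8:94172368-94172617 for Mt2, both on the + strand, 5′ to 3′, with capitals marking the core of a metal response element (TGCGCNC or TGCACNC, either strand):
Mt1: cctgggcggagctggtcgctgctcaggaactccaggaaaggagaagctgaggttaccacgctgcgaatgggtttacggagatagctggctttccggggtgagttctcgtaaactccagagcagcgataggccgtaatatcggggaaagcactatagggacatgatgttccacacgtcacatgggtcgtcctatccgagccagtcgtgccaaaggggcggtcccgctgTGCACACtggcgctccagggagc
Mt2: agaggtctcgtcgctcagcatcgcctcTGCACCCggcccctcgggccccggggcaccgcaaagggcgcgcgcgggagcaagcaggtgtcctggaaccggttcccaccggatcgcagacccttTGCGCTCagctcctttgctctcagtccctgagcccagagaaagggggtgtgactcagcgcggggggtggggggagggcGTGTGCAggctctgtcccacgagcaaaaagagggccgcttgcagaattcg

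The core occurred 3 times in the Mt1 window, 4 times in that of Mt2, 2 times in that of Slc30a1, 3 times in that of Slc30a10 and 0 times in that of Mtf1. Of 32851 promoter windows, 25.7% held at least 1 core and 1.97% held 3 or more. In Slc30a10, 2 of the cores overlap on opposite strands. The cores of Mt1 and Mt2 at or beyond the start, and those of both exporters, are shown on the + strand with their surroundings:
Mt1, chr8:94179080-94179108: ccagggagctcTGCACTCcgcccgaaaag
Mt1, chr8:94179098-94179126: cgcccgaaaagTGCGCTCggctctgccaa
Mt2, chr8:94172611-94172639: gaattcgggtcGTGCGCAggcccaggggc
Slc30a1, chr1:191906727-191906755: acgggggttccGAGTGCAaagcaaagttt
Slc30a1, chr1:191906800-191906828: gcctccgggccGAGCGCAgtcgccgcgga
Slc30a10, chr1:185454604-185454632: cgtaggcagcgGTGCGCAcacccactaca
Slc30a10, chr1:185454764-185454792: tgacatcccaaTGCGCCCctcctcccagc

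Other elements were searched on both strands in the same windows. The antioxidant response element (TGACNNNGC) occurred 1 time each in Mt2 and Slc30a1, and in 12.4% of all windows. The core of a glucocorticoid response element (ACANNNTGT) occurred 1 time, in Mt1, and in 6.85% of all windows. The STAT element (TTCNNNGAA, 8.30% of all windows) and the E-box (CACGTG, 7.15%) occurred 0 times in the 5 windows. A match describes the letters and is not a bound site.

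Mt1 and Mt2 varied between mice far more than the rest of the set on the deposited log2 scale. These values are compressed between arrays: the median SD of a gene over the 20 arrays was 1.48e-05, so a difference is not a fold change. Sizes are therefore expressed in SD units as Hedges' g (005MSXH minus HFD over the pooled SD, corrected for small samples). The SD of Mt1 was 0.495 (probe set 1422557_s_at, mean 8.96), which ranks 1 among 11728 genes. The SD of Mt2 was 0.168 (1428942_at, mean 7.50), rank 4. Slc30a10 had an SD of 0.000436 and Slc39a4 one of 0.000432, ranks 589 and 591. Slc30a1 (8.75e-05, rank 1681) and Slc39a14 (5.76e-05, rank 2284) varied less, and Mtf1, at 6.57e-06, ranks 9029, below the median gene. Levels of different genes are not compared, since probes differ in response.

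Mt1 did not differ between the diets beyond the spread between mice. In HFD livers its deposited log2 level ran from 8.09 (replicate 5) through a median of 9.16 to 9.76 (replicate 9). In 005MSXH livers it ran from 8.30 (replicate 3) through 8.91 to 9.51 (replicate 10). The groups overlapped almost wholly, the HFD mice holding both the lowest and the highest value, and 4 of 10 extract-fed mice lay above the HFD median. Group means were 9.04 ± 0.537 (SD, n = 10) in HFD and 8.87 ± 0.462 (SD, n = 10) in 005MSXH, which gave g = -0.325 (95% interval -1.21 to 0.557; limma unadjusted p = 0.449, adjusted p = 0.9998). The mice formed a continuous series, the largest gap being 0.252, between 9.51 and 9.76. The other Mt1 probe set, 1451612_at, lies near the filter (mean 6.52) and gave g = 0.0895, of opposite sign.

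Mt2 followed the same pattern. Its deposited log2 level in HFD livers ran from 7.29 (replicate 5) through a median of 7.53 to 7.84 (replicate 9). In 005MSXH livers it ran from 7.32 (replicate 7) through 7.45 to 7.70 (replicate 10). The same mice were highest in each group for both metallothioneins, and HFD replicate 5 was lowest for both. The means were 7.53 ± 0.189 and 7.48 ± 0.150 (SD, n = 10 each), with g = -0.282 (95% interval -1.16 to 0.599; limma unadjusted p = 0.511, adjusted p = 0.9998).

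For the remaining 5 genes the level of each mouse is given as its deviation from the 20-mouse mean, in millionths of a deposited log2 unit. Mtf1 (1428979_at, mean 7.65) ran from -5.97 through a median of 0.565 to 9.50 in HFD. In 005MSXH it ran from -11.6 through -1.87 to 11.4. Its extremes both came from extract-fed mice, replicates 3 and 10, which were also the lowest and highest of that group for Mt1. The difference was g = -0.294 (95% interval -1.17 to 0.587; limma unadjusted p = 0.503). Of its 4 other probe sets, 3 gave a g below 0 and 1 (1452990_at) gave 0.232, and the main probe set gave 0.280 once arrays were shifted to a common median.

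Slc39a14 encodes ZIP14, an importer of zinc, iron and manganese that inflammation induces in hepatocytes. Its deviations (1427035_at, mean 9.34) ran from -98.0 through -20.9 to 125.5 millionths in HFD. In 005MSXH they ran from -117 through 12.8 to 62.6 millionths. The highest liver was HFD replicate 2 and the lowest 005MSXH replicate 2, with 8 of 10 extract-fed mice above the HFD median. Even so g was 0.055 (95% interval -0.822 to 0.932; limma unadjusted p = 0.897), and its 3 other probe sets gave g from 0.0973 to 0.563.

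Slc39a4 encodes ZIP4, the zinc uptake transporter of the intestine. In HFD its deviations (1451139_at, mean 8.41) ran from -781 through -114 to 1116 millionths. In 005MSXH they ran from -597 through 49.1 to 615 millionths. The highest value, HFD replicate 3, stood apart from the other HFD mice, and that mouse had the second lowest Mt1 of its group. The difference was g = 0.118 (95% interval -0.759 to 0.996; limma unadjusted p = 0.782), and it was -0.144 after quantile normalization.

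Slc30a1 encodes ZnT1, the zinc exporter of the plasma membrane. Its deviations (1436164_at, mean 9.09) ran from -97.0 through 9.76 to 38.6 millionths in HFD. In 005MSXH they ran from -240.6 (replicate 1) through 40.9 to 118 millionths (replicate 3). The extract-fed mice enclosed the whole HFD range, with an SD of 119.8 millionths against 42.1, a difference in spread that was not tested. Its means gave g = 0.0751 (95% interval -0.802 to 0.952; limma unadjusted p = 0.860), and the other probe set gave 0.0391.

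Slc30a10 encodes an exporter of manganese. In HFD its deviations (1439934_at, mean 7.76) ran from -892 through 102 to 789 millionths. In 005MSXH they ran from -420 through -65.1 to 474 millionths. Here the HFD mice enclosed the extract-fed mice, with SDs of 547 and 318 millionths, and 3 of 10 extract-fed mice lay above the HFD median. The difference was g = -0.0951 (95% interval -0.972 to 0.782; limma unadjusted p = 0.824), and its other probe set gave -0.162.

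**Figure D1:**
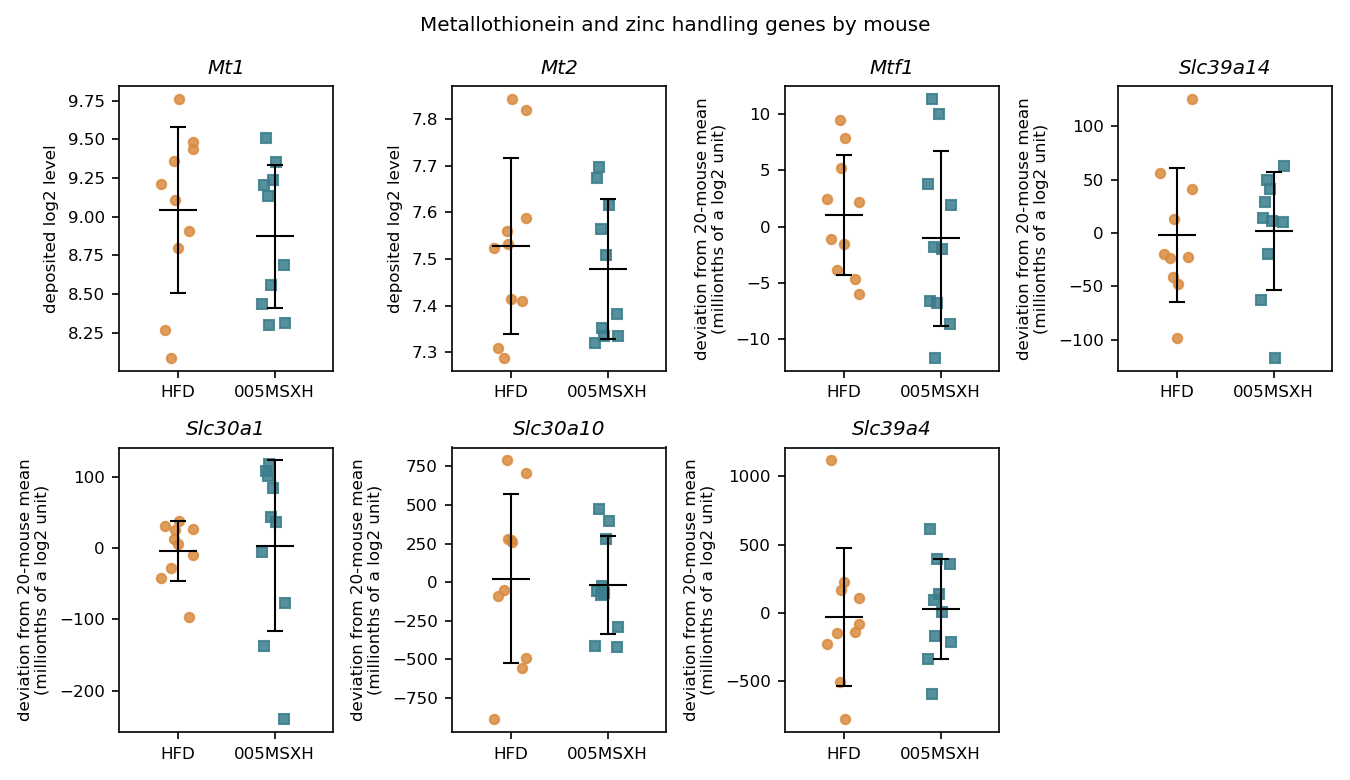
Level of each of the 7 genes by mouse, with Mt1 and Mt2 on the deposited log2 scale and the other genes as deviations from the 20-mouse mean in millionths of a log2 unit; points are mice (10 HFD circles, 10 005MSXH squares) and black marks the group mean with its SD. The groups overlap in every panel, and the vertical scales differ between panels.

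In all, 0 of the 7 genes differed between diets (limma, adjusted p = 0.9998 for each), as did 0 of 11728 genes (0%). At an unadjusted p under 0.05, 0 of the 7 and 425 of all genes (3.62%) passed, and a permutation test of each member gave p from 0.453 (Mt1) to 0.899 (Slc39a14). Over all genes g had a median of -0.00692 and a 95% range of -0.839 to 0.839, and the 7 members lay between -0.325 and 0.118. The intervals allow a difference of about 1 SD either way, so a p above the threshold does not show equal levels. For Slc39a14, Slc30a1, Slc30a10 and Slc39a4 the sign of g changed when some single mice were left out. Slc39a14 ran from -0.125 without HFD replicate 1 to 0.325 without HFD replicate 2, and Slc30a1 reached 0.479 without 005MSXH replicate 1. Slc30a10 ran from -0.351 without HFD replicate 10 to 0.0935 without HFD replicate 8, and Slc39a4 from -0.0675 without HFD replicate 9 to 0.497 without HFD replicate 3.

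**Figure D2:**
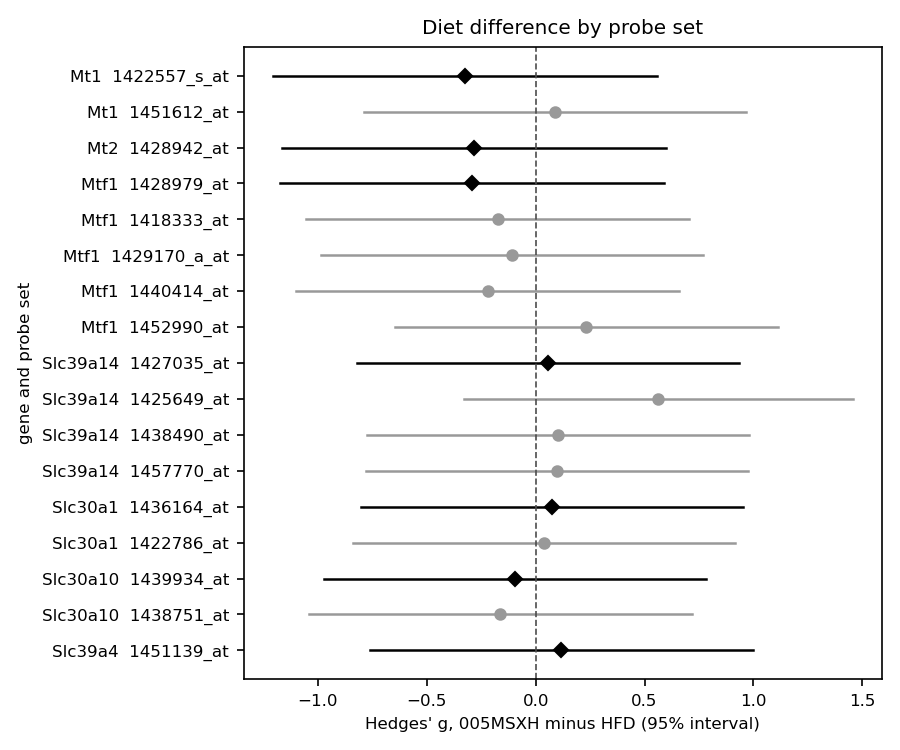
Hedges' g (005MSXH minus HFD) with its 95% interval for the 17 probe sets of the 7 genes; black diamonds are the probe sets used and grey circles the others. Every interval includes 0, and the points run from -0.325 (Mt1) to 0.563 (a further probe set of Slc39a14).

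Mt1 and Mt2 moved together from mouse to mouse. Over the 20 mice Pearson's r was 0.917 and Spearman's rho 0.926. The correlation was 0.899 within HFD and 0.941 within 005MSXH, and 0.906 once the 2 mice with the most extreme Mt1 (HFD replicates 5 and 3) were left out. It is given as a description, since both genes were picked for their spread. The suffix of the Mt1 probe set marks probes that can match related transcripts, and what part of the correlation comes from shared signal was not tested. With the dimmer Mt1 probe set, r with Mt2 was 0.570, and the Mt1 probe sets correlated with each other at 0.527.

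**Figure D3:**
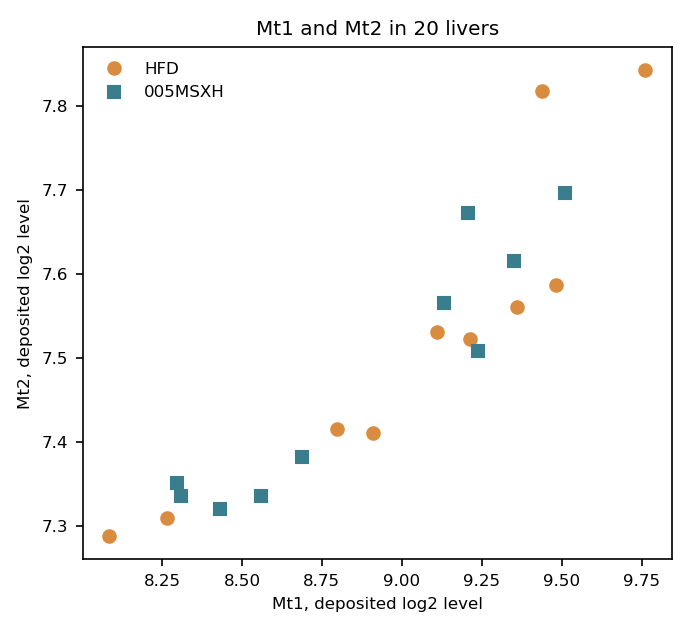
Deposited log2 level of Mt1 (horizontal) against Mt2 (vertical) in 20 livers, with HFD as circles and 005MSXH as squares. The points form 1 rising band that both diets share (r = 0.917), with HFD replicates 9 and 5 at its ends.

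The other members tracked Mt1 loosely, and the sign depended on scaling or on the probe set for several. As deposited, r with Mt1 was 0.490 for Mtf1, 0.391 for Slc30a10, 0.181 for Slc30a1, 0.120 for Slc39a14 and -0.360 for Slc39a4. Further probe sets gave r with Mt1 from -0.164 to 0.598 for Mtf1 and from -0.183 to 0.376 for Slc39a14. The other probe set gave 0.438 for Slc30a1 and 0.448 for Slc30a10. After shifting arrays to a common median, r of the chosen probe sets with Mt1 became -0.545 for Mtf1 and -0.413 for Slc39a14. After quantile normalization it was -0.308 and -0.404, with Slc30a1 at -0.489 and Slc39a4 at 0.200. The SD of the array medians was 6.66e-05 in HFD and 5.22e-05 in 005MSXH, a size near the SDs of Slc39a14 and Slc30a1 and above that of Mtf1. The level of Mt1 itself correlated with the array median at r = 0.590 (Mt2 0.647). With the diet and the array median as covariates, the partial r with Mt1 was 0.870 for Mt2, 0.458 for Mtf1, 0.608 for Slc30a10, 0.403 for Slc30a1, -0.0890 for Slc39a14 and -0.368 for Slc39a4.

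Within the diets some of these values lay far apart. Slc30a10 and Mt1 correlated at 0.771 in 005MSXH and 0.207 in HFD, and Slc39a4 and Mt1 at 0.0531 and -0.612. The difference between diets was not tested. Without the 2 mice farthest from the Mt1 median, the pooled values were 0.431 for Slc30a10 and -0.273 for Slc39a4. Slc39a4 also correlated with the 3′ minus 5′ actin difference, a control of RNA quality, at r = -0.707 (rho -0.513). On the compressed deposited scale the actin difference had an SD of 5.16e-05 in HFD and 5.31e-05 in 005MSXH. How far RNA quality itself varied between mice was not tested. Mtf1 had r = 0.470 with the actin difference and Mt1 0.356. The Gapdh control, with SDs of 6.47e-06 in HFD and 1.09e-05 in 005MSXH, gave other values. With its 3′ minus 5′ difference, r was -0.282 for Slc39a4 (rho -0.233), 0.372 for Mtf1, -0.171 for Mt1 and 0.530 for Slc30a1. The partial r of Slc39a4 with Mt1 was -0.355 with the diet as the only covariate and -0.0619 once the actin difference was added, and it was -0.152 without HFD replicate 3. The same addition took Mtf1 from 0.476 to 0.325 and Slc30a1 from 0.191 to 0.0357, while Slc30a10 (0.388 and 0.353), Slc39a14 (0.128 and 0.171) and Mt2 (0.915 and 0.903) moved less.

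Between the exporters Slc30a1 and Slc30a10, r was 0.485 over 20 mice, 0.693 within HFD and 0.612 within 005MSXH. Mtf1 correlated with Slc30a10 at 0.477, but at 0.0423 after quantile normalization, and with Slc39a4 at -0.470, but at 0.186 after the array shift and 0.0173 after quantile normalization. Slc39a14, the inflammation-induced importer, had r = -0.354 with Slc30a10, and its r with the other members lay between -0.0868 and 0.213. After the array shift it had r = 0.574 with Mtf1 and 0.401 with Slc30a1.

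**Figure D4:**
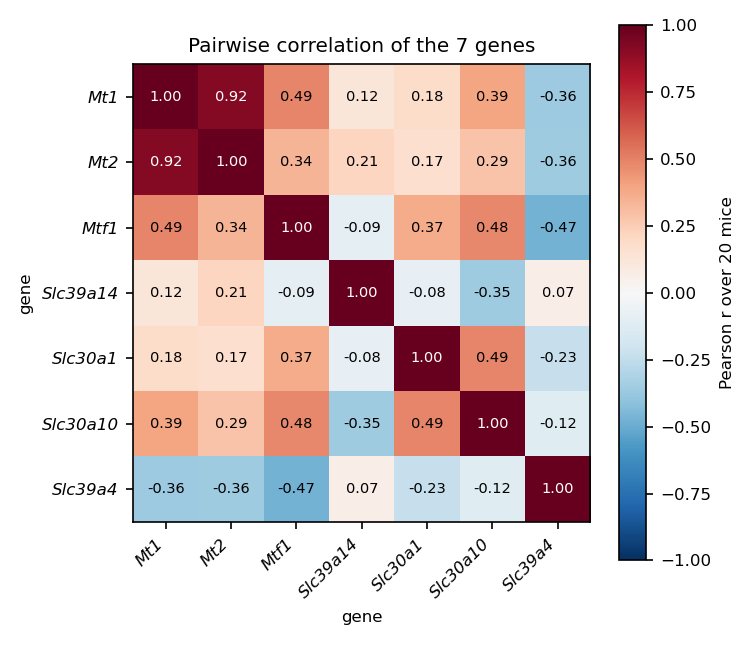
Pearson r over 20 mice for each pair of the 7 genes, on the values as deposited; red is positive and blue negative, with the value printed in each cell. Mt1 with Mt2 (0.917) stands above all other pairs, of which the next highest is Mt1 with Mtf1 (0.490).

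Probe sets of 1 gene gave a check on how well such small spreads are measured. The chosen and the other probe set agreed at r = 0.902 for Slc30a10 and 0.815 for Slc30a1. For Slc39a14 the values were 0.397, 0.601 and 0.597, and for Mtf1 they ran from -0.101 to 0.441. Over 4736 genes with at least 2 probe sets past the filter, the median r of the brightest pair was 0.480 (quartiles 0.177 and 0.730), and 7.66% of genes reached the value of Slc30a10 and 15.6% that of Slc30a1. Mt2 and Slc39a4 have 1 probe set each.

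To place the members among all genes, every gene was fitted on the Mt1 level with the diet as a covariate. With limma, 1534 of 11727 genes passed an adjusted p of 0.05 (13.1%), 761 with a positive slope and 773 with a negative one. The partial r of Mt2 was 0.915, rank 15 from the top, again as a description. Of the other 5 members 0 passed: partial r was 0.476 for Mtf1 (adjusted p = 0.123), 0.388 for Slc30a10 (0.213), 0.191 for Slc30a1 (0.585), 0.128 for Slc39a14 (0.732) and -0.355 for Slc39a4 (0.262). Over all genes the median r was -0.0167 and the 95% range -0.723 to 0.728, so these 5 lay well inside it, and 51.4% of genes had an r below 0 (93.8% after the array shift). The number of genes passed rests on a few mice: it was 731 without HFD replicate 3, 762 without HFD replicate 9, 934 without HFD replicate 5 and 0 without replicates 5 and 3 together. The balance of signs rests on scaling. Quantile normalization gave 654 positive and 1208 negative, and the array shift gave 330 positive and 9705 negative.

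Genes whose pattern most resembled that of Mt1 were sought among 5863 genes with at least the median SD. Nnmt, which methylates nicotinamide, had the highest partial r at 0.948 (0.823 with Mt2). It was followed by Cps1 (0.935), the first enzyme of the urea cycle, Crybg1 (0.933), the sulfotransferase Sult1d1 (0.931), Abcd4 (0.930), a transporter of vitamin B12, Coa6 (0.929), an assembly factor of cytochrome oxidase, Pole4 (0.925) and the urea cycle enzyme Asl (0.925). At the other end were Bdh1 (-0.931), an enzyme of ketone body metabolism, the gap junction gene Gjb1 (-0.927), the adrenergic receptor gene Adra1b (-0.916) and Ggact (-0.916). All 12 kept their sign without HFD replicates 5 and 3, with sizes from 0.874 to 0.927. They were picked as the extremes of r with these same mice included, so the kept sign is not independent support. The sign of Cps1 turned after the array shift (-0.165) and that of Ggact after quantile normalization (0.221), for which Cps1 was not tested. The others kept their sign in both, although quantile normalization left Gjb1 at -0.377 and Adra1b at -0.634.

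The wider families of zinc exporters and importers were read in the same fit. Of 10 Slc30 genes, 8 passed the filter and 7 of those had a partial r with Mt1 above 0 (median 0.157; -0.0167 over all genes), but 4 of 8 after quantile normalization and 1 of 8 after the array shift. Only Slc30a6, which loads zinc into the secretory pathway, passed the test (0.643, limma adjusted p = 0.034), 1 of 8 beside 13.1% of all genes, and the array shift turned its sign (-0.519), while with the array median as a covariate 0 of the 8 passed, as without any 1 of HFD replicates 3 or 9 or 005MSXH replicates 4 or 10. Slc30a5 had -0.551 (adjusted p = 0.0819). Of 14 Slc39 genes, 12 passed the filter, 4 had an r above 0 and the median was -0.374, with 5 of 12 above 0 after quantile normalization and 0 of 12 after the array shift. The test was passed by 3 of the 12, beside 13.1% of all genes: Slc39a10 (-0.830, limma adjusted p = 0.0119), a plasma membrane importer, Slc39a11 (-0.705, 0.0255) and Slc39a7 (-0.695, 0.0257), which releases zinc from the endoplasmic reticulum. After quantile normalization Slc39a10 was at -0.717, whereas the same step left Slc39a11 at 0.0623 and Slc39a7 at -0.0230. With the actin control as a covariate 0 of the 12 passed, and with the array median 1. Among the diet comparisons of both families, 0 genes passed.

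Mt3, a metallothionein best known from brain, had r = 0.452 with Mt1 (adjusted p = 0.173) and -0.446 after the array shift, and Mt4 lay below the filter. Among 15 genes of copper, iron and manganese handling past the filter (of 17), 7 had an r above 0 and 3 passed the test beside 13.1% of all genes, all with a negative slope, but 0 passed with either the actin control or the array median as a covariate. These were the divalent metal transporter gene Slc11a2 (-0.754, limma adjusted p = 0.0171), the copper importer gene Slc31a1 (-0.743, 0.0177) and the copper chaperone gene Ccs (-0.691, 0.0248). After quantile normalization they were at -0.747, -0.720 and -0.474.

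Listed genes that glucocorticoids induce in liver went with Mt1 on the values as deposited. The list was written with earlier results of these data known, so its counts are a description and not independent support. Of 12 listed, 11 passed the filter, all 11 had a partial r above 0 (median 0.678, against -0.0167 over all genes) and 7 passed the test, beside 13.1% of all genes. The highest were the cell cycle inhibitor gene Cdkn1a (0.869), Fkbp5 (0.866), a chaperone of the glucocorticoid receptor, and Tdo2 (0.826), which degrades tryptophan (limma adjusted p = 0.0116, 0.0116 and 0.0119). Cdkn1a stayed at 0.869 and Fkbp5 at 0.866 to 0.868 under both scalings, while Tdo2 was at 0.0539 after the array shift. The count past the test was 6 of 8 after quantile normalization (16.6% of all genes), 4 of 11 without HFD replicate 3 (6.23%), 3 with the actin control as a covariate (2.65%) and 3 on ranks (10.5%). It was 0 either with the array median as a covariate (3.67%) or without HFD replicates 5 and 3 (0%). Without those 2 mice, least squares without moderation gave 3 of 11 (3.46%). After the array shift it was 8 of 11, all with a positive slope. Of all 11727 genes 85.6% then passed, 330 with a positive slope and 9705 with a negative one. That share pools both signs and is no like measure for the 8, so no conclusion is drawn from the count. With the array median as a covariate and without HFD replicates 5 and 3, 11 and 10 of the 11 had an r above 0, with medians of 0.533 and 0.459. For Fkbp5 g between diets was 0.0204, and 0 of the 11 differed between diets.

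**Figure D5:**
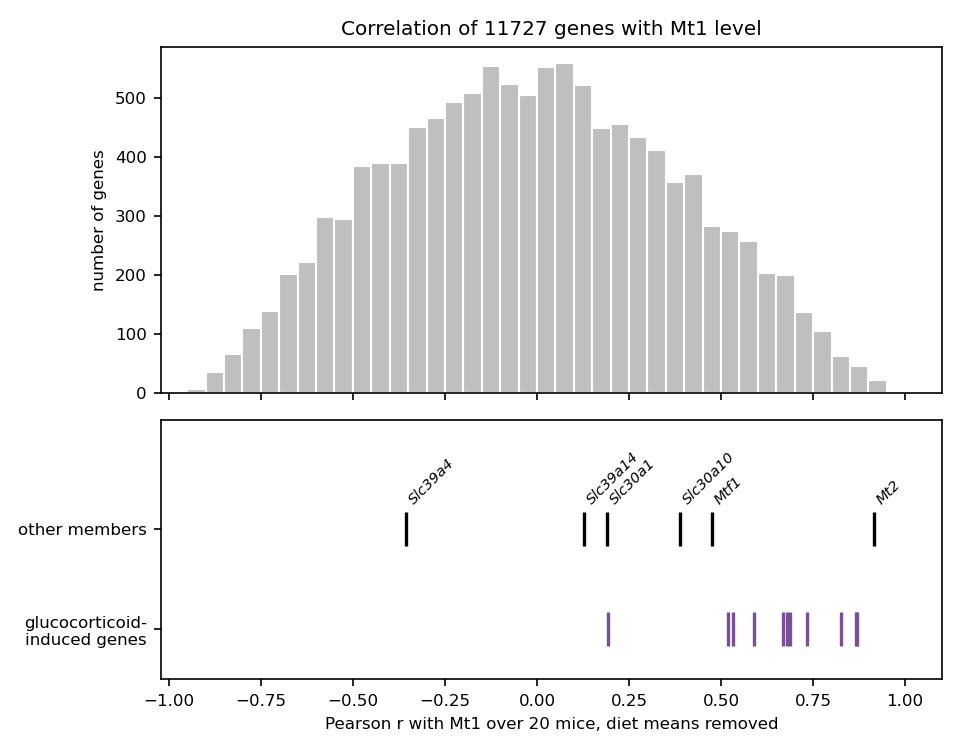
Pearson r with Mt1 over 20 mice after removing diet means, as a histogram of 11727 genes (top) and as ticks for the other 6 members and 11 glucocorticoid-induced genes (bottom). Mt2 (0.915) and the glucocorticoid-induced genes (median 0.678) lie toward the right, and the other members lie in the body of the histogram.

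The lists of acute phase, oxidative stress and heat shock genes each held both signs. Of 17 acute phase and IL-6 genes past the filter (of 18), 10 had an r above 0 (median 0.120), with 4 passing on the positive and 2 on the negative side, beside 13.1% of all genes. The 6 that passed became 2 or 3 without any 1 of HFD replicates 3, 5, 8 or 9 or 005MSXH replicates 3, 4 or 10. The list's median ran from 0.0298 without HFD replicate 9 to 0.317 without 005MSXH replicate 10, and was -0.235 with the array median as a covariate. Lbp, which binds bacterial lipopolysaccharide, had 0.832 (limma adjusted p = 0.0119), haptoglobin (Hp) 0.720 (0.0204) and Crp 0.700 (0.0390), but after the array shift Hp was at -0.449 and Crp at 0.0423. The serum amyloid genes Saa1 (0.216) and Saa2 (0.0856), classical acute phase markers, did not pass. Of 9 genes of NRF2 and oxidative stress past the filter (of 13), Nfe2l2 and Keap1 among them, 3 had an r above 0. The test was passed by 2 of the 9, beside 13.1% of all genes. Srxn1 (0.621, limma adjusted p = 0.0413) and Gclc, the catalytic subunit of glutathione synthesis (-0.613, 0.0432), had opposite signs, and its partner Gclm had -0.582 (0.0559). None of the 9 passed without any 1 of HFD replicates 1, 3, 4, 5 or 9 or 005MSXH replicates 3 or 8, and 1 passed without any 1 of HFD replicate 8 or 005MSXH replicates 2, 4, 5 or 9. Of 8 heat shock genes past the filter (of 9), 4 had an r above 0 and 0 passed the adjusted test, with Hspa1a at -0.427, Dnajb1 at -0.324 and Hspb1 at 0.188. With the actin control as a covariate, 0 genes of these lists passed.

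Cell type markers were read in the same way. In these bulk samples fewer cells of a type and less RNA per cell cannot be told apart. The tissue carried the hepatocyte markers: 9 of 11 had a probe set past the filter, with mean levels from 7.20 to 14.7. Their r with Mt1 was above 0 for 7 of 9 (median 0.527), with a median of 0.176 with the array median as a covariate, and Tat is also on the glucocorticoid list. After the array shift 2 of the 9 were above 0 (median -0.577, against -0.565 over all genes). After quantile normalization only 2 of the markers could be scored, both above 0. All 8 markers of Kupffer cells and macrophages had an r below 0 (median -0.499), as did all 8 after quantile normalization (median -0.511). Their median was -0.699 without 005MSXH replicate 9 and -0.337 with the actin control as a covariate. All 7 stellate cell markers past the filter (of 8) had an r below 0 (median -0.407), and 5 of 6 did after quantile normalization. Their median was -0.631 without 005MSXH replicate 9 and -0.202 with the actin control as a covariate. The array shift put 93.8% of all genes below 0, so nothing is read from it for any of these lists. Summed deposited levels ran from 68.168 to 68.178 (HFD) and 68.165 to 68.177 (005MSXH) for the Kupffer list, from 64.230 to 64.339 and 64.230 to 64.385 for the stellate list, and from 115.99 to 116.08 and 115.996 to 116.07 for hepatocytes. Endothelial markers split evenly, with 4 of 8 above 0. Of bile duct markers 2 of 6 passed the filter, of lymphocyte markers 1 of 6, and of red cell, pancreas and intestine markers 3 of 6 each. The part of cell composition in the correlations with Mt1 was not tested.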

How the data were processed

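RNA copies of each liver were labelled with biotin by a 3′ IVT kit, which reads mostly transcript 3′ ends, and hybridised to 1 array per mouse, per the labels' protocols. The values the authors deposited for 45101 probe sets were read as log2 levels (5.20 to 14.96). How the authors corrected background, normalized and summarised probes is not given in the sources used here, and the compressed spread follows from those steps or from later ones. Signal over background is unknown, and precision is limited by the number of arrays.

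After removing 64 controls, the platform annotation named 1 gene for 34945 probe sets, several for 932 and none for 9160, and 34741 matched RefSeq. Genes averaging under 6.505, the median over non-control probe sets, were left out. Diets were compared with limma 3.58.1 (R 4.3.3; lmFit, eBayes) with Benjamini-Hochberg adjustment at 0.05. For the fit on Mt1 each gene was scaled to unit SD, with the diet as covariate. Permutation tests were two-sided with 100000 draws. Steps were tested on simulated data. Figures used matplotlib 3.10.9 in Python 3.11.15.

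All 7 members were named, with the 8 genes of highest and 4 of lowest partial r with Mt1 and up to 3 of each pathway list by size of r. Others (Saa1, Saa2, Mt4, Tat) were named after their values were seen. The members and lists were chosen with earlier results of these data known. Alternatives covered scaling, filter, probe set, variance model, replicate block, ranks and single arrays. The covariates and the unmoderated fit were added after seeing the data.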

Additional observations from a re-analysis of the deposited data

Results flagged for a closer look

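Among the probe sets of the 7 genes and of the 12 genes most like or unlike Mt1, 58 sets of 10 mice were examined for a mouse whose gap to its nearest neighbour was a large share of the group's range, and 7 passed the 95% limit of Dixon's test. Chance alone gives about 1 in 20, or 2.9 of the 58. In 1 case the probe set was one used above: for Slc39a4 (1451139_at) HFD replicate 3 was high, with a gap of 0.468 of the range. The others were further probe sets of members, and in each the mouse was high. For Slc39a14 these were 005MSXH replicate 8 on 1425649_at (0.501) and, on 1457770_at, HFD replicate 2 (0.549) and 005MSXH replicate 10 (0.538). For Slc30a10, 005MSXH replicate 10 stood apart on 1438751_at (0.489). For Mtf1 it was 005MSXH replicate 6 on 1418333_at (0.484), and for Mt1 005MSXH replicate 9 on 1451612_at (0.482).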

How the results depend on the processing

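The diet comparison gave 0 genes under each alternative run, with 46 (array shift) to 780 (no filter) genes at an unadjusted p under 0.05, and 0 when any 1 mouse was left out (smallest limma adjusted p = 0.0765). The sign of g turned for Mtf1 after the array shift (0.280) and with probe set 1452990_at (0.232), for Slc39a4 after quantile normalization (-0.144) and for Mt1 with probe set 1451612_at (0.0895). Leaving out single mice gave g from -0.582 to -0.179 for Mt1, -0.447 to -0.0936 for Mt2, -0.537 to -0.131 for Mtf1, -0.125 to 0.325 for Slc39a14, -0.0622 to 0.479 for Slc30a1, -0.351 to 0.0935 for Slc30a10 and -0.0675 to 0.497 for Slc39a4. The correlation of Mt1 with Mt2 moved most with the dimmer Mt1 probe set (0.570).

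The fit on Mt1 passed 10035 genes after the array shift, 980 of 18192 without the filter, 311 with the actin control and 430 with the array median as a covariate, 0 without HFD replicates 5 and 3 (2384 at an unadjusted p under 0.05), and 406 there by least squares without moderation. Leaving out single mice gave 731 to 1721. Quantile normalization (1862, of which 494 were among the 1534), deposited scale (1610), no diet term (1515), ranks (1237) and unmoderated least squares (1553) stayed within 1.5 times. In that fit r turned after the array shift for Mtf1 (-0.532), Slc39a14 (-0.395) and Slc30a1 (-0.146), and Slc39a4 then passed (-0.423, adjusted p = 0.0406), as did 85.6% of all genes. After quantile normalization it turned for Mtf1 (-0.338), Slc39a14 (-0.371), Slc30a1 (-0.493) and Slc39a4 (0.190), and with the array median as a covariate for Slc39a14 (-0.0890). The cause was not tested.

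The labels do not say that replicate numbers pair the mice. Same-numbered arrays correlated from -0.133 to 0.369 (mean 0.0530, against -0.00601 for other pairs between diets). For 2 of 20 arrays the closest array of the other diet carried the same number. These values cannot exclude a pairing. With the replicate block the diet comparison gave 0 genes. The g of each member is computed without the block, so it was the same by construction (Mt1 -0.325). The fit on Mt1 with the block gave 0 genes (1795 at an unadjusted p under 0.05), with Slc39a14 at -0.0440.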
